A study of Mus musculus with 12 samples.

Results

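The transcriptomes of LSK cells and of cells labelled MPP from Tet2 knockout (KO) mice were compared across all genes, using 4 of the 12 libraries of a bone marrow RNA sequencing series. LSK cells are the lineage-negative, Sca-1-positive, Kit-positive fraction of marrow, and MPP stands for multipotent progenitor. The 2 LSK KO libraries were set against the 2 MPP KO libraries, chosen by the genotype and population in their labels, after the count tables of the populations had been joined by gene symbol. All animals were 10 weeks old and of a mixed 129/C57/B6 background. The marrow of 2 mice was pooled per genotype, sorted, and made into 2 technical replicate libraries per population from amplified RNA with ERCC spike-ins. The wild-type (WT) libraries and those of a Tet2 mutant (Mut) were used to share the estimate of spread and to ask whether the LSK and MPP difference itself depended on genotype. The labels give neither the alleles nor the MPP sorting gates, and they call the same population Lin in the sample titles. LSK KO and MPP KO are used below for libraries so labelled.

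Blood formation starts from stem cells in the LSK fraction, which pass through multipotent progenitors to progenitors committed to the lymphoid, myeloid, megakaryocytic and erythroid lineages. Stem cell transcription factors such as the Hox proteins, Meis1 and Mecom give way to Gata1 and Klf1 in the erythroid lineage and to the C/EBP factors, Spi1 and Irf8 in the granulocyte and monocyte lineages. Tet2 oxidises 5-methylcytosine in DNA, and its loss is known to expand the stem and progenitor compartment and to favour myeloid output.

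The 4 KO libraries held 13071512 to 17220392 gene counts and 13605 to 14264 detected genes, so that the limit left by a count of 0 in a library was 0.166 to 0.234 CPM (counts scaled to a common library total, on the TMM-scaled total). The p-values measure only the spread between technical libraries of a single pool, not between mice. Spike-ins took 0.153% ± 0.00884 of counts in LSK KO and 3.32% ± 0.188 in MPP KO (SD, n = 2 each). Each difference below is therefore relative to the total gene RNA of a library, since scaling to the spike-ins would add 4.62 to every log2 difference and would turn 1023 of the 1142 genes called lower to positive values. In such bulk samples, fewer cells of a type and less RNA per cell cannot be told apart. The LSK WT libraries stood apart, with a Pearson correlation of 0.879 across genes between their log2 levels, against 0.957 to 0.968 within the other 5 groups.

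Tet2 was measured first as a check of the labels. It had 29.2 and 31.7 CPM in LSK KO and 34.9 and 34.9 CPM in MPP KO, against 87.3 and 62.6 CPM in LSK WT and 39.6 and 29.4 CPM in MPP WT. Its level in MPP KO lay within the range of the MPP WT libraries, so the counts over the gene do not separate that pair of groups. The log2 difference of LSK KO from MPP KO was -0.20 (SE 0.284, edgeR quasi-likelihood test, adjusted p = 0.715). An allele without function may still be transcribed, and counts were given per gene rather than per exon, so this check does not settle the genotype of the libraries labelled MPP KO.

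The population labels were checked against surface marker genes. Ly6a, which encodes Sca-1, had 163 and 149.6 CPM in LSK KO and 10.4 and 10.5 CPM in MPP KO. Kit, the stem cell factor receptor, had 569 and 569.9 CPM in LSK KO and 177 and 182 CPM in MPP KO. Both genes encode proteins of the LSK gate, so their difference is a description of the sort. Multipotent progenitors are conventionally placed inside the Sca-1-positive gate, and the level of Ly6a in MPP KO goes against that placement, which is why the population is called by its label here. Of the genes of lineage-depletion antibodies, 9 were tested, of which 3 fell and 0 rose, with 1 falling without LSK KO replicate 2. Cd3g was among those that fell, as was Cd3e, which lost its call with a replicate block (adjusted p = 0.0567) and without LSK KO replicate 2 or any 1 of the MPP libraries of KO, WT or Mut (adjusted p up to 0.129). The summed level of that list was 367 and 325 CPM in LSK KO and 453 and 472 CPM in MPP KO. The list includes Ptprc, which encodes CD45 of white blood cells in general, so the sum is not a measure of lineage-positive cells.

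Of 14033 genes tested, 2128 (15.2%) differed between LSK KO and MPP KO at an adjusted p below 0.05, with 986 higher (7.03%) and 1142 lower (8.14%) in LSK KO. The median log2 difference over all genes was 0.05. Stem cell, Hox and megakaryocyte-biased genes were among the genes that rose in LSK KO, and granule protein, erythroid and heme synthesis genes were among those that fell. Some genes were seen in one population alone: 36 had at least 50 counts in each LSK KO library and 0 in both MPP KO libraries, of which 26 were called, and 42 showed the converse, of which 36 were called. The number of calls changed with the libraries included. It was 3300 without the LSK WT libraries, and 1000 and 991 without LSK KO replicate 1 or 2, against 1011 and 1021 without MPP KO replicate 1 or 2.

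**Figure D1:**
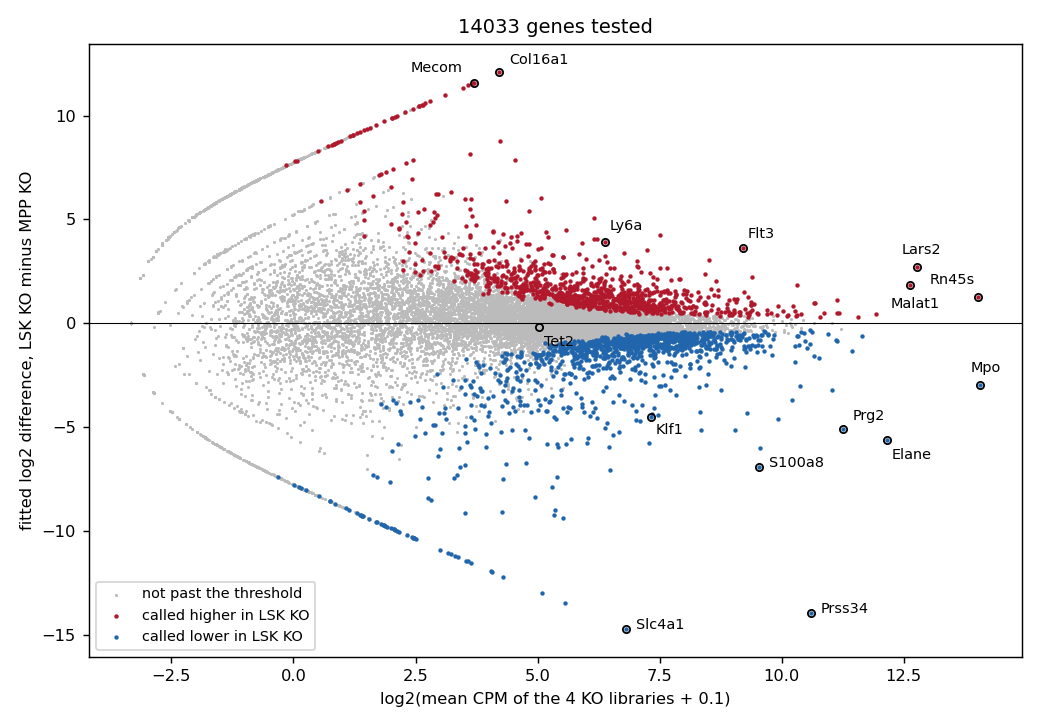
Fitted log2 difference (LSK KO minus MPP KO, vertical axis) against the log2 of mean CPM plus 0.1 of the 4 KO libraries (horizontal axis) for the 14033 genes tested, with the 986 genes called higher in red, the 1142 called lower in blue and the others in grey. The curved edges hold genes with 0 counts in 1 population, whose fitted difference depends on a prior count, and Mpo, Elane and Prg2 lie far below 0 at high levels.

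Genes of the blood stem cell programme were higher in LSK KO. Of 31 tested, 18 rose and 0 fell, with a median log2 difference of 2.36, or 2.12 with genes absent from 1 population at their bound. Mecom, a transcription factor needed to maintain stem cells (chromosome 3, 29951296 to 30548008 of GRCm38), had 19.9 and 31.5 CPM in LSK KO and 0 counts in both MPP KO libraries. With MPP KO set to a floor of 3 counts for both libraries together, that is at least 220-fold higher (adjusted p = 0.000227).

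Other stem cell genes showed the same order. Esam, an endothelial adhesion molecule also present on stem cells, had 85.1 and 47.4 CPM in LSK KO and 1.99 and 0 CPM in MPP KO (adjusted p = 0.00706). Ndn, an imprinted growth regulator, was at 0 in MPP KO and at least 148-fold higher in LSK KO, but its adjusted p of 0.0323 became 0.0764 and 0.0799 without LSK KO replicate 1 or 2, and 0.138 and 0.133 without MPP KO replicate 1 or 2. Procr, the endothelial protein C receptor used to sort stem cells, was 14.8-fold higher at 37.9 and 43.1 CPM in LSK KO and 2.35 and 3.12 CPM in MPP KO (adjusted p = 0.000183). Not every marker passed. Slamf1, which encodes CD150, had 1.16 and 8.97 CPM in LSK KO and 11.1 and 5.38 CPM in MPP KO (adjusted p = 0.806), and its libraries overlapped.

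Of 18 genes tested in a list of Hox genes and their partners of the Meis and Pbx families, 7 rose and 0 fell. Their median log2 difference was 5.16, a value that depends on genes at 0 in MPP KO and is 3.04 with those at their bound. Between 4 and 6 rose when a KO library was left out, with 4 without LSK KO replicate 2 or MPP KO replicate 1. Hoxa9, a homeobox factor that drives self-renewal (chromosome 6, 52223100 to 52231089), had 115 and 108 CPM in LSK KO and 8.31 and 6.86 CPM in MPP KO, a 14.7-fold difference (adjusted p = 9.55e-06). Hoxa10, its neighbour in the cluster, had 25.2 and 18.5 CPM in LSK KO and 0 in both MPP KO libraries, at least 197-fold higher (adjusted p = 0.000205). Hoxb3 was at 0 in MPP KO as well (adjusted p = 0.0262), and Hoxa5 had 13.03 and 16.3 CPM in LSK KO against 0 and 0.78 CPM in MPP KO (adjusted p = 0.0363). Hoxb3 lost its call without LSK KO replicate 1 or 2 (adjusted p = 0.0835 and 0.06) and without MPP KO replicate 1 or 2 (adjusted p = 0.127 and 0.122), and Hoxa5 lost its own without LSK KO replicate 1 or 2 (adjusted p = 0.0884 and 0.108) and without MPP KO replicate 1 (adjusted p = 0.15). Hoxb2, Hoxb5 and Hoxb6, named after their values were seen, had at most 1.33 CPM in any KO library.

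Among the genes with the largest fitted rise in LSK KO were several with 0 counts in MPP KO. Col16a1, a collagen chain, had 28.0 and 45.9 CPM in LSK KO, at least 315-fold higher (adjusted p = 0.000194). Hnf4a, a nuclear receptor best known from liver and gut, had 18.1 and 32.3 CPM in LSK KO, at least 214-fold higher (adjusted p = 0.00069). Npdc1, Ppp1r26 and Ephb4, the last an ephrin receptor, were at 0 in MPP KO and at least 212-, 117- and 112-fold higher in LSK KO. Col4a1, a basement membrane collagen, had 2 counts over the MPP KO libraries against 1181 over the LSK KO libraries, a ratio of 487 after scaling (95% interval 134 to 4025). Npdc1 and Ephb4 lost their calls without LSK KO replicate 1 and without either MPP KO replicate, and Col4a1 without MPP KO replicate 2, whereas Col16a1, Hnf4a and Ppp1r26 kept theirs under each setting tried.

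Lymphoid-priming genes rose in part. Of 23 tested, 7 rose and 1 fell, with a median of 0.73. Flt3, the cytokine receptor that marks lymphoid-primed progenitors within LSK (chromosome 5, 147330741 to 147400489), had 1049 and 1143 CPM in LSK KO and 79.2 and 98.4 CPM in MPP KO. This was a 12.3-fold difference (log2 3.63, SE 0.159, adjusted p = 1.56e-07) between groups that did not overlap. Dntt, the terminal transferase of lymphoid precursors, had 369 and 318 CPM in LSK KO and 83.4 and 76.0 CPM in MPP KO (adjusted p = 4.76e-05). Satb1, a chromatin organiser, and Ltb, the lymphotoxin beta chain, were 5.61-fold and 6.44-fold higher. Il7r, the interleukin 7 receptor of committed lymphoid progenitors, did not pass, with 4.25 and 7.40 CPM in LSK KO and 13.2 and 14.1 CPM in MPP KO (adjusted p = 0.263).

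Megakaryocyte genes divided into those that rose and those that did not pass the test. Of 21 tested, 6 rose and 0 fell (median 1.19, and 0.12 without LSK KO replicate 2). Pf4, a platelet chemokine, had 108 and 73.7 CPM in LSK KO and 25.6 and 33.6 CPM in MPP KO (adjusted p = 0.00388). Selp, P-selectin, and Treml1, a platelet granule receptor, also rose, at adjusted p-values of 0.034 and 0.0109. Selp lost its call without each of the KO libraries and without either LSK Mut library (adjusted p up to 0.2), and Treml1 without LSK KO replicate 1 or either MPP KO replicate (adjusted p up to 0.101). Itga2b, the platelet integrin CD41, had 189.6 and 160.3 CPM in LSK KO and 172 and 178 CPM in MPP KO, and the groups overlapped. Gata2, a factor shared by stem cells and mast cells, did not pass either, with 277 and 200.03 CPM in LSK KO and 239 and 241 CPM in MPP KO (adjusted p = 0.991).

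**Figure D2:**
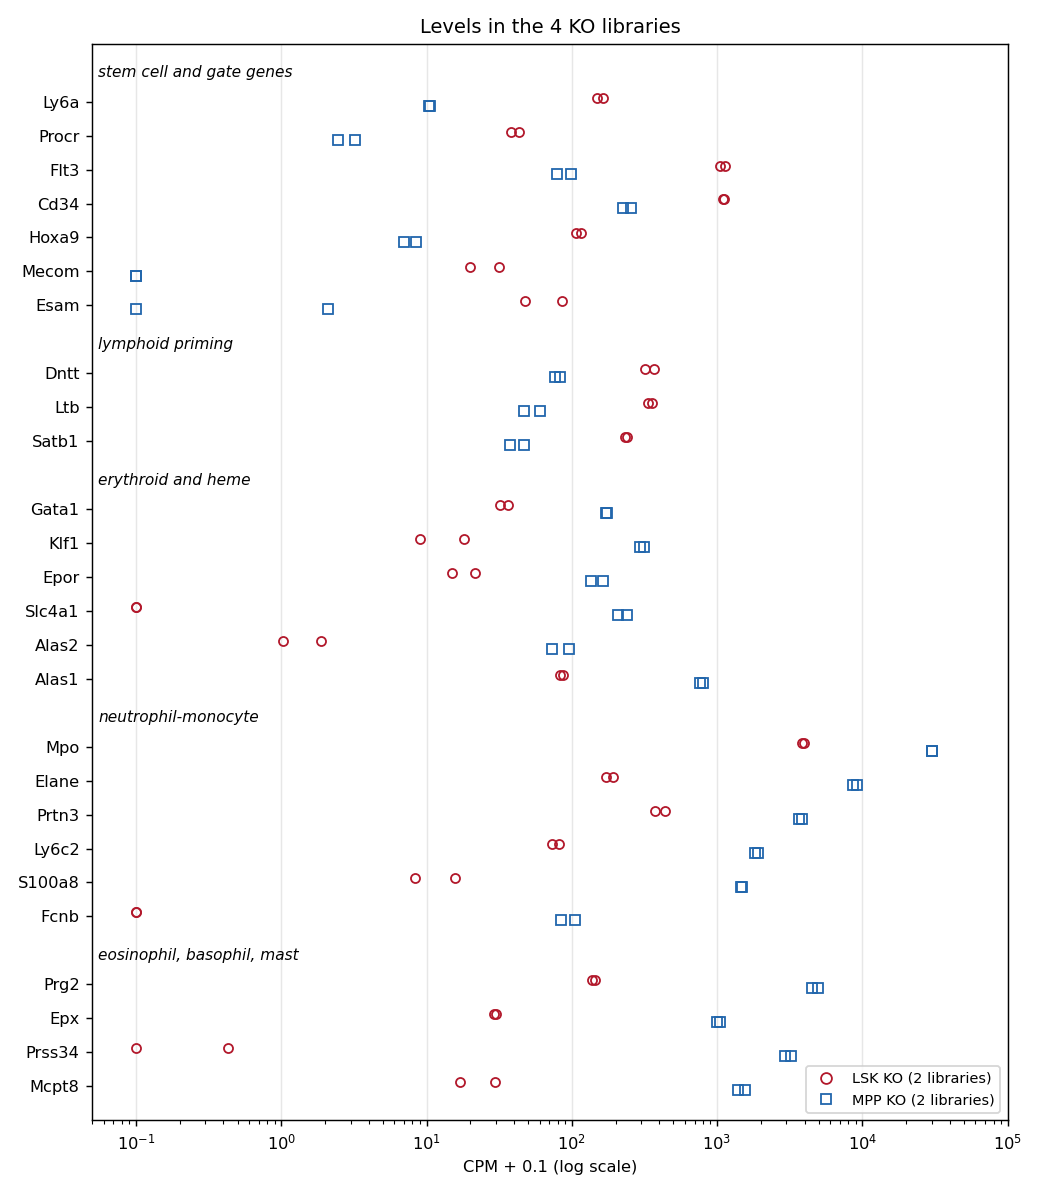
CPM plus 0.1 on a log axis for selected genes in each KO library, LSK KO as red circles and MPP KO as blue squares, with genes grouped by lineage. The stem cell and lymphoid genes lie to the right in LSK KO, for example Flt3 at 1049 and 1143 CPM, and the erythroid and granulocyte genes to the right in MPP KO, where Mpo reached 30175 and 30299 CPM.

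The opposite order was seen for a list of neutrophil primary granule genes. The list also holds genes whose products are not neutrophil granule proteins, such as Calr, Gstm1, Ms4a3 and Nkg7. Of 13 primary granule genes tested, 12 fell in LSK KO and 0 rose (median -2.15). Mpo, myeloperoxidase (chromosome 11, 87793581 to 87804413), had 3996 and 3821 CPM in LSK KO and 30175 and 30299 CPM in MPP KO. The difference was 7.73-fold (log2 -2.95, SE 0.0506, adjusted p = 6.65e-11). Elane, neutrophil elastase (chromosome 10, 79886247 to 79888215), had 193 and 173 CPM in LSK KO and 8677 and 9247 CPM in MPP KO, a 49.0-fold difference (adjusted p = 4.73e-09). Prtn3, proteinase 3, and Ms4a3, a membrane protein of granulocyte-monocyte progenitors, were 9.21-fold and 20.2-fold lower. Summed over the list, these transcripts made up 7578 and 7203 CPM in LSK KO and 53521 and 53524 CPM in MPP KO. Of these sums, Calr, a chaperone of the endoplasmic reticulum, made up 846 and 806 CPM in LSK KO and 2618 and 2214.5 CPM in MPP KO.

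Genes of a late neutrophil list were lower too, although several were near the floor. The list mixes genes of later granules with others, such as S100a8 and Ly6g. Of 15 tested, 7 fell and 0 rose (median -4.23). S100a8, a subunit of calprotectin (chromosome 3, 90668978 to 90670035), had 15.7 and 8.26 CPM in LSK KO and 1464 and 1488 CPM in MPP KO, a 122-fold difference (adjusted p = 1.29e-06). Fcnb, ficolin B, had 0 counts in both LSK KO libraries and 105 and 84.1 CPM in MPP KO, at least 1012-fold lower (adjusted p = 0.000166). Chil3, a chitinase-like protein, had 0.11 and 0.144 CPM in LSK KO and 84.0 and 77.8 CPM in MPP KO. Ly6g, the surface marker of mature neutrophils, was at 0.442 and 0 CPM in LSK KO and at 1.40 and 0 CPM in MPP KO.

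Monocyte genes and the factors of the myeloid lineage moved partly in the same direction. Of 15 monocyte and macrophage genes tested, 6 fell and 0 rose (median -2.29), with 3 falling without either LSK KO replicate. Ly6c2, which encodes the monocyte antigen Ly6C and has a close paralog that could share its reads, had 81.5 and 73.1 CPM in LSK KO and 1812 and 1904 CPM in MPP KO. Ccr2, the chemokine receptor of monocytes, had 3.92 and 6.39 CPM in LSK KO and 49.7 and 90.9 CPM in MPP KO (adjusted p = 0.000159). Of 14 myeloid transcription factors and regulators, 6 fell and 2 rose (median -0.72), with 1 rising without LSK KO replicate 1, 0 without LSK KO replicate 2 or either MPP KO replicate, and 4 falling without MPP KO replicate 1. Cebpe, needed for late granule formation, was 15.1-fold lower, at 6.30 and 1.79 CPM in LSK KO and 58.6 and 65.0 CPM in MPP KO (adjusted p = 0.000534). Irf8, a factor of monocytes and dendritic cells, was 2.52-fold lower (adjusted p = 5e-04). Cebpa, the factor that opens the granulocyte programme, had 8.84 and 12.6 CPM in LSK KO and 30.8 and 25.3 CPM in MPP KO and did not pass (adjusted p = 0.159).

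Eosinophil and basophil genes gave some of the widest gaps. Of 11 eosinophil genes tested, 6 fell and 0 rose (median -4.06). Prg2, the major basic protein of eosinophil granules (chromosome 2, 84980461 to 84983632), had 144 and 137 CPM in LSK KO and 4931 and 4525 CPM in MPP KO, a 33.6-fold difference (adjusted p = 2.16e-08). Epx, eosinophil peroxidase (chromosome 11, 87864000 to 87875536), had 30.0 and 28.9 CPM in LSK KO and 1053 and 992 CPM in MPP KO (adjusted p = 1.61e-08). Of 12 basophil and mast cell genes, 9 fell and 0 rose, with a median of -4.47, or -4.07 with genes at 0 at their bound. Prss34, a basophil protease (chromosome 17, 25298394 to 25300165), had 0.331 and 0 CPM in LSK KO, 6 counts in all, and 3214 and 2954 CPM in MPP KO. The fitted difference was -13.95 on the log2 scale (SE 0.33, adjusted p = 4.73e-09). Mcpt8, another basophil protease, was 63.8-fold lower (adjusted p = 2.04e-06). The mast cell proteases Tpsb2, Tpsab1 and Mcpt4 were too low to be tested, and Cma1 had 0 CPM in 3 of the 4 libraries.

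Erythroid genes were lower in LSK KO. Of 25 erythroblast genes tested, 20 fell and 0 rose (median -3.68). Slc4a1, the band 3 anion exchanger of red cell membranes (chromosome 11, 102348824 to 102366203), had 0 counts in both LSK KO libraries and 241 and 208 CPM in MPP KO, at least 2401-fold lower (adjusted p = 0.000426). Sptb, erythroid beta spectrin, was also at 0 in LSK KO and at least 728-fold lower (adjusted p = 0.0053). The rows for the adult globins Hba-a1, Hba-a2, Hbb-bs and Hbb-bt held 0 counts in all 4 KO libraries, and 5 members of the list held 0 in all 12, so globin was not measured here.

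The erythroid transcription factors did not move as a block. Klf1, the erythroid Krüppel-like factor (chromosome 8, 84901928 to 84905291), had 8.89 and 18.1 CPM in LSK KO and 296 and 314 CPM in MPP KO, a 22.7-fold difference (adjusted p = 3.52e-06). Gata1 had 32.1 and 36.0 CPM in LSK KO and 174 and 172 CPM in MPP KO (adjusted p = 0.00138), and Gfi1b, a repressor it works with, was 4.23-fold lower. In contrast, Lmo2, Tal1, Ldb1 and Cbfa2t3, which bind GATA factors in a shared complex and act in stem cells as well, were 2.81-, 2.25-, 2.11- and 2.20-fold higher in LSK KO. In total 5 of the 18 factors of the erythroid and megakaryocyte list rose and 3 fell, with 3 rising without LSK KO replicate 1 or 2 or MPP KO replicate 1 and 2 without MPP KO replicate 2. Tal1 lost its call without each of the KO libraries, at adjusted p-values of 0.0787 and 0.0921 without LSK KO replicate 1 or 2 and of 0.0759 and 0.128 without MPP KO replicate 1 or 2. Ldb1 lost its own without MPP KO replicate 2 (adjusted p = 0.057).

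Genes of heme synthesis and iron uptake fell in LSK KO. Of 24 genes tested, 19 fell and 0 rose (median -1.86). Alas2, the erythroid form of the first enzyme of heme synthesis, had 1.77 and 0.933 CPM in LSK KO and 95.8 and 73.3 CPM in MPP KO (adjusted p = 0.000985). Alas1, the form that all cells use, had 86.4 and 83.2 CPM in LSK KO and 803 and 762 CPM in MPP KO (adjusted p = 5.78e-08). Of the enzymes that follow, Alad, Uros, Urod, Cpox and Fech were 2.09- to 5.78-fold lower, and Ppox missed the threshold (adjusted p = 0.0539). Cpox lost its call without LSK KO replicate 1 or 2 (adjusted p = 0.0931 and 0.0503). The receptor of transferrin-bound iron, Tfrc, was 3.95-fold lower, and Steap3, its ferrireductase, 5.93-fold lower. Hmox1, which breaks heme down, did not pass, at 20.4 and 14.9 CPM in LSK KO and 7.95 and 3.67 CPM in MPP KO.

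Promoters of the genes that fell together were searched for short motifs of the factors known for these lineages. The sequences are RefSeq promoters on GRCm38.p6, 250 bases before to 50 after the gene start, searched on both strands, and 8672 of the genes tested have a single such promoter. AGATAA, a form of the core that GATA factors bind, was found in 6.67% of these promoters. The share was 9.42% among the single promoters of genes called lower and 11.5% among those of all genes. Other forms of the core, such as TGATAA, were not searched. AGATAA was in 5 of 19 promoters (26.3%) of erythroblast and heme genes called lower, in 5 of 12 (41.7%) of basophil, mast cell and eosinophil genes called lower, and in 0 of 14 of stem cell and Hox genes called higher. AGGAAG, a core bound by ETS factors such as PU.1 (the product of Spi1), was found in 34.2% of all promoters tested and in 13 of 16 (81.2%) of genes of the granule lists called lower. TTGCNNAA, a C/EBP core, was found in 8.35% of all, in 10.9% of genes called lower and in 6 of the same 16 (37.5%). It was also in 4 of 12 (33.3%) of basophil, mast cell and eosinophil genes called lower. CCACCC, which KLF factors bind, was found in 36.6% of all, in 11 of 19 (57.9%) of erythroblast and heme genes called lower, and in 10 of 14 (71.4%) of the stem cell and Hox genes called higher. Matches of different motifs may overlap and were counted separately. The shares are descriptions without a test, and a match is not a measured binding site.

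The promoters below, chosen after the matches were known, are of genes called lower that hold such a match, with the match or its reverse complement in capitals. Alas2 (chrX:150547167-150547466, plus strand), Epor, the erythropoietin receptor (chr9:21963527-21963826, minus strand), and Prss34 (chr17:25298144-25298443, plus strand) each held 1 match to AGATAA, starting at positions -86, -54 and -31 from the gene start. Elane (chr10:79886062-79886361, plus strand) and Prtn3 (chr10:79879417-79879716, plus strand), neighbours on chromosome 10, held 1 and 2 matches to AGGAAG, and Mpo (chr11:87793534-87793833, plus strand) held 3. Epor was called lower at an adjusted p of 0.008, and at 0.0785 lost that call without LSK KO replicate 2. No match to AGATAA was present in the windows of Rhag, Klf1 and Mcpt8. Those of Rhag and Klf1 do hold TTATCA, the reverse complement of TGATAA, which was not searched. The GENCODE starts of Elane, Mpo and Klf1 given above lie upstream of the RefSeq starts used here. More of each of those windows therefore lies inside the GENCODE gene.
Alas2: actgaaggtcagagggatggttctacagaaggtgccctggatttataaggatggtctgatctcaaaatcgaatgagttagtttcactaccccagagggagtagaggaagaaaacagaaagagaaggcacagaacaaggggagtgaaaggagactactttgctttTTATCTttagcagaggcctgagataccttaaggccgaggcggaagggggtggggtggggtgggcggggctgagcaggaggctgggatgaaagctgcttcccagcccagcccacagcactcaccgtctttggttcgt
Epor: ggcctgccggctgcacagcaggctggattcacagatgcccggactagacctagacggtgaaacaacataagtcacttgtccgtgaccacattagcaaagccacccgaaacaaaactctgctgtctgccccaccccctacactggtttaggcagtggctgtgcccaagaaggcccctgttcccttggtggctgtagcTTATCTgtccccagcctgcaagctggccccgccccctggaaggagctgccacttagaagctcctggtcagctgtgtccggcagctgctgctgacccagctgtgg
Prss34: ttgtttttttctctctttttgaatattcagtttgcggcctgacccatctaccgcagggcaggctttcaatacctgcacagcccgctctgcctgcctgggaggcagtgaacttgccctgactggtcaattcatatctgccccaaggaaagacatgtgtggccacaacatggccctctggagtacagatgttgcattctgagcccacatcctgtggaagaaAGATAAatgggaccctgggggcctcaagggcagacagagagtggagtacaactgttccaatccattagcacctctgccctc
Elane: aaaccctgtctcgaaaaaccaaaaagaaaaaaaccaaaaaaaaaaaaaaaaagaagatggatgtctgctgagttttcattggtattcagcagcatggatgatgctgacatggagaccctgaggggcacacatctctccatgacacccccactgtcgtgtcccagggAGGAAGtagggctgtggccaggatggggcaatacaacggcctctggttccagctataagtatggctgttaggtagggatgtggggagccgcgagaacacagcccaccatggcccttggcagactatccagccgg
Prtn3: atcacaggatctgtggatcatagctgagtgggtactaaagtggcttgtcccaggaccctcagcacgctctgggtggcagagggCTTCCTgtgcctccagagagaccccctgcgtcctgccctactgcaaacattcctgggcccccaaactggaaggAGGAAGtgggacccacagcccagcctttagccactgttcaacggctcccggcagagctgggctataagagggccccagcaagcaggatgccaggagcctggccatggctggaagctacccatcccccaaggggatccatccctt
Mpo: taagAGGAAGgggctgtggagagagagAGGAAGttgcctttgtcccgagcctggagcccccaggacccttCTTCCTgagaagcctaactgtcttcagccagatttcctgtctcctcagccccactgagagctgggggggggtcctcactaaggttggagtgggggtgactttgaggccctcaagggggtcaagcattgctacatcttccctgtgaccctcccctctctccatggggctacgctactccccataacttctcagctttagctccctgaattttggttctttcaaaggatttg

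Cell cycle genes were lower in LSK KO. Of 42 DNA replication genes tested, 23 fell and 0 rose (median -0.72), and of 34 mitosis genes, 19 fell and 0 rose (median -0.79). Without LSK KO replicate 1 or 2 the genes that fell numbered 11 and 12 for replication and 10 and 7 for mitosis, and without MPP KO replicate 1 or 2 they numbered 15 and 12 for replication and 13 and 8 for mitosis. Rrm2, the small subunit of ribonucleotide reductase, had 62.5 and 73.6 CPM in LSK KO and 575 and 558 CPM in MPP KO (8.32-fold, adjusted p = 6.76e-07). Ccne1, cyclin E1, was 9.68-fold lower (adjusted p = 0.00509), and Ccna2, cyclin A2, had 85.0 and 95.8 CPM in LSK KO and 250.01 and 232 CPM in MPP KO (adjusted p = 0.00154). The D cyclins split: Ccnd2 rose 1.71-fold with its kinase Cdk6 (1.84-fold), and Ccnd3 fell, with 203 and 192 CPM in LSK KO and 612 and 603 CPM in MPP KO (3.07-fold, adjusted p = 4.21e-05). The inhibitors Cdkn1a, Cdkn1b and Cdkn1c did not pass, and Cdkn1c (p57) had 7.62 and 5.10 CPM in LSK KO and 0.956 and 2.26 CPM in MPP KO.

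**Figure D3:**
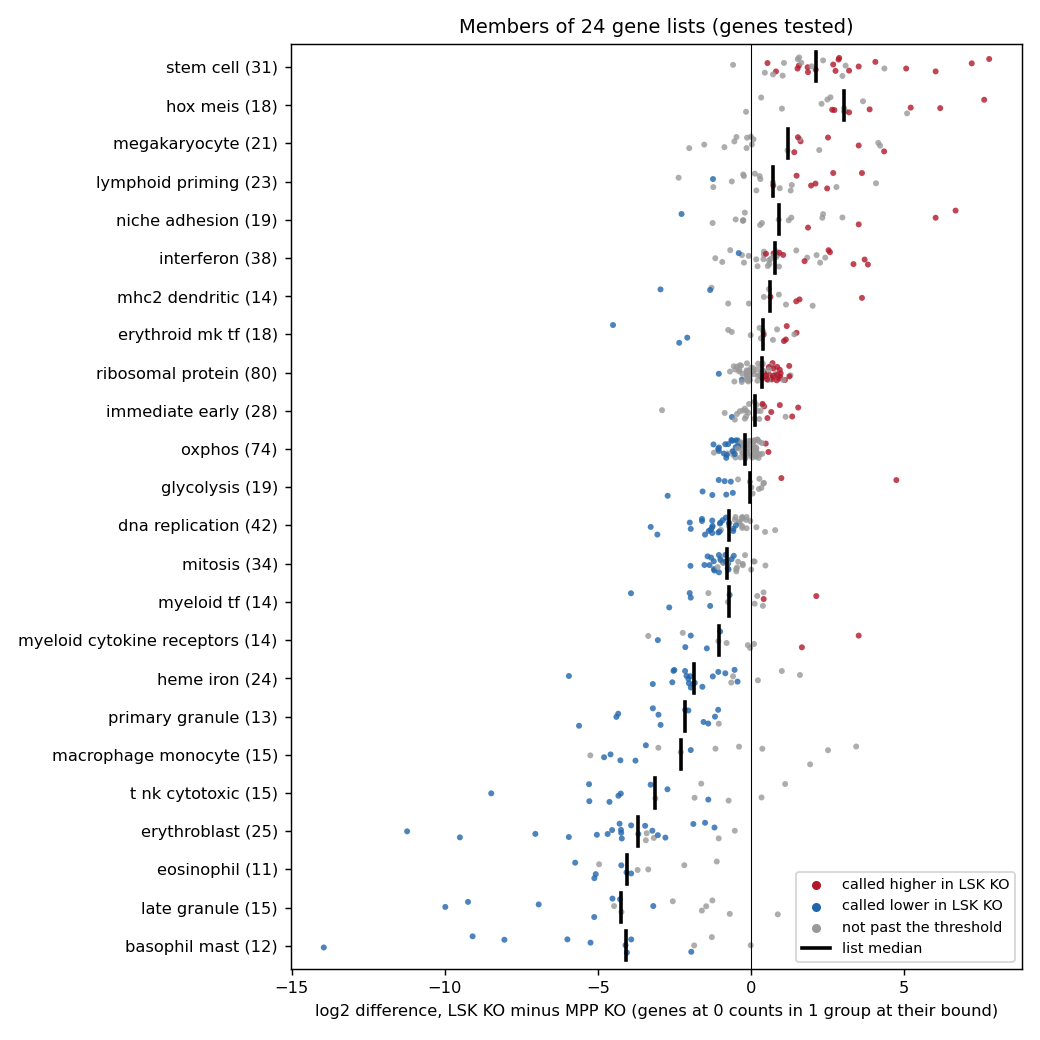
Log2 difference (LSK KO minus MPP KO, horizontal axis) of each tested member of 24 gene lists, with the number tested in brackets, members called higher in red, called lower in blue and others in grey, and the list median as a black bar. Genes at 0 counts in 1 group are drawn at their bound, and the stem cell and Hox lists lie to the right (medians 2.12 and 3.04) while the granule, eosinophil, basophil and erythroblast lists lie to the left.

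The DNA methylation machinery was examined because Tet2 belongs to it. Of 15 genes tested, 4 rose and 1 fell (median 0.07), with 2 rising without LSK KO replicate 1 or 2 or MPP KO replicate 2. Tet1, a paralog of Tet2, had 73.4 and 83.2 CPM in LSK KO and 23.5 and 7.41 CPM in MPP KO (5.07-fold higher, adjusted p = 0.00561). Tet3 had 92.7 and 81.8 CPM in LSK KO and 44.8 and 67.8 CPM in MPP KO and did not pass (log2 0.63, SE 0.299, adjusted p = 0.195). The de novo methyltransferase Dnmt3b had 141 and 183 CPM in LSK KO and 45.6 and 47.7 CPM in MPP KO (adjusted p = 0.000212). Dnmt3a rose 2.07-fold at an adjusted p of 0.0399, a call it lost without either LSK KO replicate (adjusted p = 0.143 and 0.135), without MPP KO replicate 2 (adjusted p = 0.264) and without either MPP WT or either LSK Mut library. Ogt, which binds Tet2, was 1.96-fold higher, a call lost without each of the KO libraries (adjusted p up to 0.123), and Idh1, which makes the 2-oxoglutarate that Tet enzymes use, was 3.77-fold lower. The Tet1 difference was of the same sign in WT and Mut, and its change with genotype did not pass (KO minus WT, adjusted p = 0.822, KO minus Mut, adjusted p = 0.878).

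A minority of interferon response genes rose, 26.3% of those tested against 7.03% of all genes. Of 38 interferon response genes tested, 10 rose and 1 fell (median 0.78), with 5 rising without LSK KO replicate 1 or 2 or MPP KO replicate 1 and 7 without MPP KO replicate 2. Oasl2, an antiviral protein, had 126 and 81.9 CPM in LSK KO and 10.4 and 10.1 CPM in MPP KO (10.2-fold, adjusted p = 0.00104), and Iigp1, an immunity-related GTPase, had 38.1 and 36.6 CPM in LSK KO and 1.32 and 4.37 CPM in MPP KO (adjusted p = 0.0168, and up to 0.125 without LSK KO replicate 1 or 2 or MPP KO replicate 1). Ly6e, expressed widely in blood cells, was the gene that fell, 1.32-fold, and did not pass without MPP KO replicate 1. Of 22 NF-kB and inflammatory genes, 6 fell and 1 rose (median -0.28, and -0.55 without LSK KO replicate 2). Tnfaip2 and Cxcl2 were 6.34-fold and 3.75-fold lower, and Il6 had 0 counts in LSK KO and 27.5 and 22.1 CPM in MPP KO, at least 266-fold lower (adjusted p = 0.00618). Ccl4, a chemokine, was the gene that rose (1.72-fold).

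Stress-responsive genes, which can also move with sorting, were mixed. Of 28 immediate early genes tested, 7 rose and 1 fell (median 0.12, and -0.03 without LSK KO replicate 2). Those that rose numbered 4 and 2 without LSK KO replicate 1 or 2 and 3 without either MPP KO replicate. Fos had 4546 and 4399 CPM in LSK KO and 3261 and 3365 CPM in MPP KO, a difference of 1.35-fold (adjusted p = 0.000236). Junb was the gene that fell, 1.54-fold (adjusted p = 0.00195). Of 14 heat shock genes, 5 fell and 1 rose, with 3 falling without LSK KO replicate 1. Hspa5, the chaperone of the endoplasmic reticulum, had 835 and 844 CPM in LSK KO and 2637 and 2624 CPM in MPP KO (3.13-fold, adjusted p = 1.14e-07). Hspa1a and Hspa1b, near-identical copies whose reads could be split between them, were 3.86-fold and 3.73-fold lower.

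Most ribosomal protein and respiratory chain genes did not pass the test, but the shares called were above those over all genes. Of the ribosomal protein genes 30% were called higher, against 7.03% of all genes tested. Of the oxidative phosphorylation genes 23.0% were called lower, against 8.14%. Of 80 ribosomal protein genes tested, 24 rose and 2 fell (median 0.35), with 13 and 14 rising without LSK KO replicate 1 or MPP KO replicate 1 and 0 falling under upper-quartile scaling, and with 6 rising at a 1.5-fold threshold. Rps24 had 478 and 427 CPM in LSK KO and 199 and 181 CPM in MPP KO (adjusted p = 4.37e-05), and Rps28 rose 2.38-fold. Many of these genes have processed pseudogenes that could share reads. Of 74 nuclear genes of oxidative phosphorylation, 17 fell and 2 rose (median -0.18), with 9 falling without LSK KO replicate 2 and 10 without either MPP KO replicate. Among those that fell was Cyc1, cytochrome c1, at 232 and 212 CPM in LSK KO and 489 and 549 CPM in MPP KO (adjusted p = 4.57e-05). Glycolysis genes had a median of -0.03 (0.03 under upper-quartile scaling), with 8 lower and 2 higher of 19, and with 4, 3 and 4 lower without LSK KO replicate 1, LSK KO replicate 2 or MPP KO replicate 1 and 5 without MPP KO replicate 2. Gpi1, glucose-6-phosphate isomerase, and Ldha, lactate dehydrogenase A, were 2.40-fold and 1.51-fold lower. Gapdh was counted at only 14.7 and 10.6 CPM in LSK KO and 51.4 and 24.1 CPM in MPP KO, and its many pseudogenes make that count uncertain.

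Several abundant transcripts also differed between the groups. Rn45s, the ribosomal RNA precursor, took 2.49% ± 0.0292 of gene counts in LSK KO and 0.937% ± 0.0234 in MPP KO (SD, n = 2 each). Malat1, a nuclear non-coding RNA, took 1.04% ± 0.000434 in LSK KO and 0.267% ± 0.00076 in MPP KO. The row for Lars2, the mitochondrial leucyl-tRNA synthetase, took 1.28% ± 0.0115 in LSK KO and 0.175% ± 0.00397 in MPP KO. Whether the reads of the Lars2 row come from the mRNA of the synthetase or from ribosomal RNA was not tested. Differences also varied with transcript length. When genes were divided into 5 equal classes by the length of their longest transcript, in the longest class 12.5% were called higher and 3.53% lower, with a median log2 difference of 0.41, whereas in the other 4 classes 4.73% to 6.80% were called higher and 7.30% to 11.7% lower. The median length of the longest transcript was 3249 bases in the stem cell list, 1289 in the primary granule list and 949 in the eosinophil list. It was 3585.5 in the mitosis list and 3084.5 in the heme and iron list, whose called members fell, and 1076.5 in the ribosomal protein list, where most called members rose. The part of length in these differences was not tested.

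**Figure D4:**
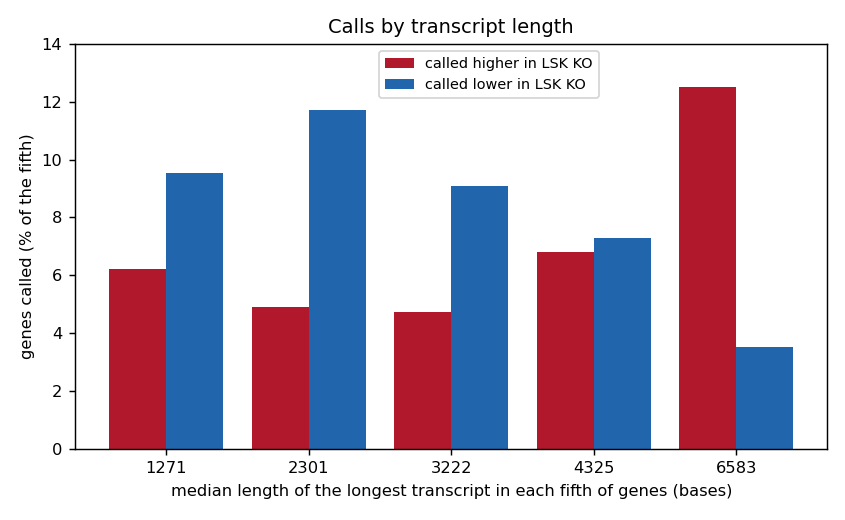
Percentage of genes called higher in LSK KO (red) or lower in LSK KO (blue) in each of 5 equal classes of genes by the length of their longest annotated transcript, with the median length of the class in bases on the horizontal axis. The longest class, at a median of 6583 bases, is the one with more genes called higher (12.5%) than lower (3.53%).

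Markers of other mature cells were examined beside these results. Of 15 T, NK and cytotoxic cell genes tested, 9 fell and 0 rose (median -3.12, with 5 falling without LSK KO replicate 2 or either MPP KO replicate), with a summed level of 485 and 492 CPM in LSK KO and 1362 and 1336 CPM in MPP KO. Cd3g, a chain of the T cell receptor complex, had 0.0552 and 0 CPM in LSK KO and 12.3 and 15.5 CPM in MPP KO, and Cd8a was too low to be tested. Nkg7, which the list shares with the primary granule list, made up 394 and 399.9 CPM of the LSK KO sums and 1064 and 1023 CPM of the MPP KO sums. Of 10 B cell genes tested, 0 rose and 0 fell by edgeR or by DESeq2, 0 had an unadjusted p below 0.05, and Ms4a1 and Pax5, which define B cells, were at 0 in all 4 KO libraries. Of 8 stromal and endothelial genes tested, 1 rose (Pdgfrb, 4.52-fold) and 0 fell, and Cdh5, Col1a1 and Col3a1 were too low to be tested. The part of such cells in the myeloid and erythroid differences was not tested.

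Whether the difference between LSK and MPP depended on the Tet2 genotype was asked with interaction terms, coded as the log2 difference in KO minus that in WT or in Mut. By comparison, 10.2% of the genes tested were called higher and 13.7% lower in LSK than in MPP within WT, and 3.55% higher and 5.21% lower within Mut, 8.76% in all. Against WT, the difference changed for 102 of 14033 genes (0.727%), 80 higher (0.570%) and 22 lower (0.157%), and against Mut for 9 genes (0.0641%), 5 higher (0.0356%) and 4 lower (0.0285%). At an unadjusted p below 0.05 there were 1734 and 896. The count against WT was unstable. It was 813 and 903 without LSK WT replicate 1 or 2, 12 and 24 without LSK KO replicate 1 or 2, 4 and 4 without MPP KO replicate 1 or 2, 7 and 6 without MPP WT replicate 1 or 2, 50 and 48 without LSK Mut replicate 1 or 2, and 20 and 35 without MPP Mut replicate 1 or 2. The count against Mut was 39 and 34 without LSK WT replicate 1 or 2, 30 without both, 5 without LSK KO replicate 2 and 5 without either MPP Mut replicate, and was between 6 and 10 without any other library.

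The medians of the stem cell and erythroblast lists had the same sign in the 3 genotypes. That of the stem cell list was 2.36 in KO, 2.38 in WT and 2.22 in Mut, and that of the erythroblast list was -3.68 in KO, -2.91 in WT and -3.64 in Mut. The primary granule list had a median of -2.15 in KO, -3.44 in WT and -1.95 in Mut. Of its 13 genes tested, 8 had a difference called higher in KO than in WT and 0 lower. Over all genes the shares were 0.570% and 0.157%. Against Mut, 0 were called higher and 1 lower. The eosinophil list had a median of -4.06 in KO, -9.05 in WT and -8.54 in Mut. Of its 11 genes tested, 3 were called higher in KO than in WT and 2 than in Mut, with 0 lower. Mpo had a log2 difference of -2.95 in KO and -4.57 in WT, an interaction of 1.62 (adjusted p = 3.33e-07). Its levels were 3996 and 3821 CPM in LSK KO and 30175 and 30299 CPM in MPP KO, against 1522 and 1637 CPM in LSK WT and 36775 and 38119 CPM in MPP WT. Elane had a wider gap in KO (-5.61) than in Mut (-4.07), with an interaction of -1.55 (adjusted p = 0.0105).

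The eosinophil genes Prg2 and Epx gave the interactions with the smallest adjusted p-values against WT, and against Mut only that of Lars2 was smaller than theirs. Prg2 had 144 and 137 CPM in LSK KO, against 0 and 0.159 CPM in LSK WT and 6.94 and 10.05 CPM in LSK Mut. In the MPP libraries it was present throughout, at 4931 and 4525 CPM in MPP KO, 6920 and 7724 CPM in MPP WT and 3329 and 3026 CPM in MPP Mut. Epx had 30.0 and 28.9 CPM in LSK KO and 0 counts in the LSK WT and LSK Mut libraries. The fall in LSK was thus smaller in KO than in WT (adjusted p = 9.05e-08 for Prg2 and 2.63e-07 for Epx) and than in Mut (3.77e-05 and 5.68e-07). Prg3, a homologue of Prg2, passed against WT (adjusted p = 0.0316).

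S100a8 showed the reverse, with a wider gap in KO. It had 15.7 and 8.26 CPM in LSK KO and 40.5 and 85.1 CPM in LSK WT, while the MPP libraries held 1464 and 1488 CPM in KO and 1407 and 1476 CPM in WT (interaction -2.42, SE 0.451, adjusted p = 0.0434). This interaction did not pass at a 1.5-fold threshold, where 0 genes were called lower in KO than in WT. Prss34 had 0.331 and 0 CPM in LSK KO and 17.5 and 15.8 CPM in LSK Mut (interaction -5.18, SE 0.417, adjusted p = 0.00059), but 0 CPM in both LSK WT libraries. Tfr2, the second transferrin receptor, was lower in LSK than in MPP in KO, at 115 and 116 CPM in LSK KO and 269.9 and 279.6 CPM in MPP KO. In Mut it had 208 and 211 CPM in LSK and 150.2 and 171 CPM in MPP (interaction -1.63, SE 0.202, adjusted p = 0.0119). Of the 9 interactions against Mut, 2 were Rn45s and Lars2, described above.

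**Figure D5:**
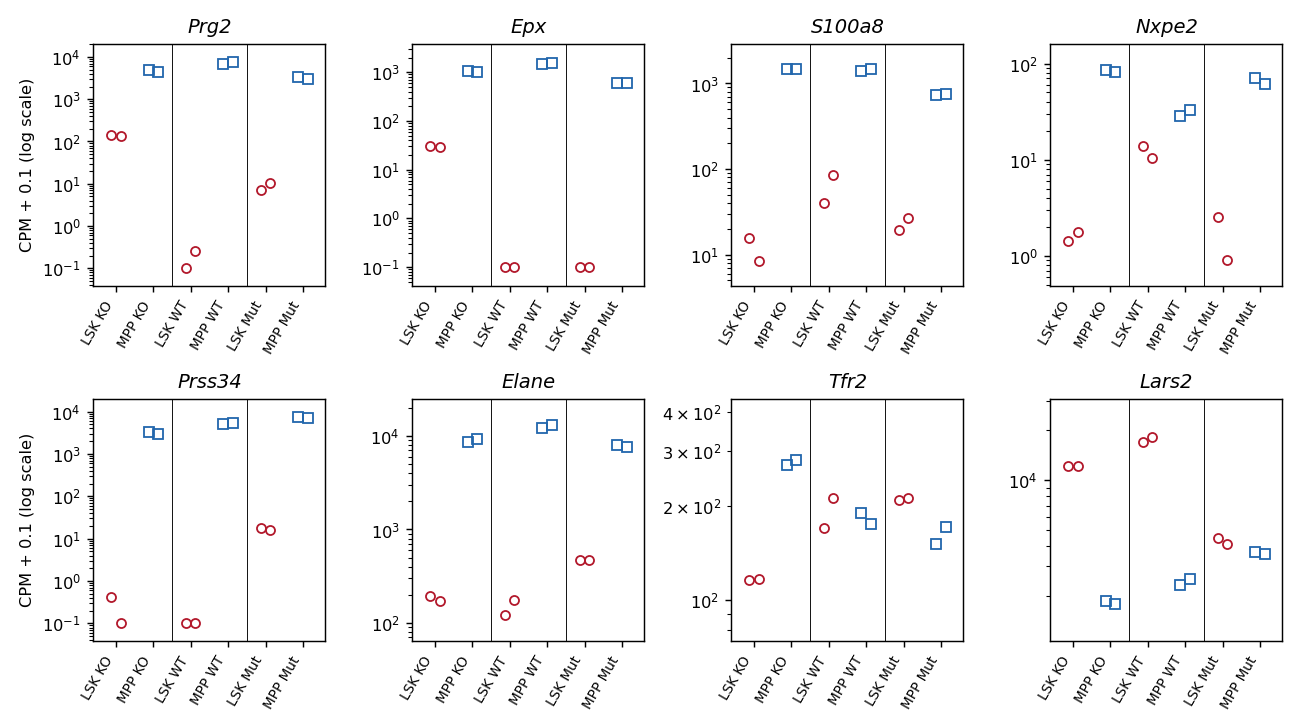
CPM plus 0.1 on a log axis for 8 genes that passed an interaction test between genotype labels, in each of the 12 libraries. LSK is shown as red circles and MPP as blue squares, with the pairs of KO, WT and Mut from left to right. Prg2 and Epx are seen in LSK KO (144 and 137, and 30.0 and 28.9 CPM) where the LSK WT libraries are at or near 0.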

How the data were processed

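The deposited tables hold raw read counts per gene symbol, 24630 symbols per population of which 92 are ERCC spike-ins, and no scaling by the authors is visible in the values. Per the labels' protocols, sorted-cell RNA was amplified before library preparation. Per the labels' series design, read pairs of 150 bp had adaptors removed by Trim Galore 0.4.1, and TopHat2 2.0.13 aligned them to mm10 at its defaults. The submitters' processing notes also name HTSeq 0.6.1 and Cufflinks, without giving their roles. The annotation and the strand setting are not given in the sources used here, so reads of overlapping or antisense genes cannot be told apart. All 12 columns were used, and 1 MPP column whose library number differed from the title was taken as MPP KO replicate 2, the only title with the rest of its name.

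Gene counts were fitted with edgeR 4.0.16 (R 4.3.3): filterByExpr (minimum count 10, minimum total 15), TMM scaling over genes without spike-ins, and a quasi-likelihood fit with a mean for each of the 6 groups (6 residual degrees of freedom). P-values were two-sided and Benjamini-Hochberg adjusted over 14033 genes, called below 0.05. Where a group held 0 counts, its fold was taken against 3 counts for both libraries together, and with 1 to 3 counts an exact 95% interval of the ratio is given. Intervals and floors cover counting error only. DESeq2 1.42.0, other scalings, no filter, a 1.5-fold threshold, the 4 KO libraries alone, a replicate block and leaving out libraries were alternatives. Gene positions and transcript lengths are from GENCODE M21 on GRCm38.

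Genes were named by a rule: the 12 higher and 12 lower called genes of largest fitted difference whose libraries did not overlap and whose higher group averaged at least 200 counts, the 6 in each direction of largest CPM difference, up to 4 called members of each of 37 lists in each direction (at least 100 counts), up to 5 interactions in each direction, and Tet1, Tet2, Tet3, Kit and Ly6a. Other genes named were chosen after their values were seen, and some genes that the rule names are not reported here. The comparison, lists and rule were chosen with earlier results of these data known.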

Additional observations from a re-analysis of the deposited data

Results flagged for a closer look

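The results here are the named genes whose LSK and MPP difference changed with genotype by the interaction test of edgeR, with Benjamini-Hochberg adjustment over 14033 genes. Against WT, the difference was higher (less negative or more positive) in KO for Epx (adjusted p = 2.63e-07), Prg2 (9.05e-08), Arhgef11 (0.0371), Pik3r6 (0.0333) and Hnf4a (0.0435). Epx, Prg2, Arhgef11 and Pik3r6 had 3 counts or fewer over the LSK WT libraries, so the sizes of their interactions are not bounded. Arhgef11 had 11.6 and 22.0 CPM in LSK KO and 10.7 and 7.64 CPM in MPP KO, against 0 and 0 CPM in LSK WT and 12.6 and 5.30 CPM in MPP WT. Pik3r6, a subunit of phosphoinositide 3-kinase gamma, had 12.9 and 9.98 CPM in LSK KO and 25.2 and 37.98 CPM in MPP KO, against 0 and 0 CPM in LSK WT and 21.4 and 18.0 CPM in MPP WT. Hnf4a had 18.1 and 32.3 CPM in LSK KO and was at 0 in MPP KO, so the size of its interaction is not bounded either. In WT it had 5.28 and 30.7 CPM in LSK and 6.06 and 4.10 CPM in MPP.

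The difference was lower in KO than in WT for Sstr2 (adjusted p = 0.0387), Nxpe2 (0.023), Gzmb (0.0477), Nedd9 (0.044) and S100a8 (0.0434). None of these passed at a 1.5-fold threshold, where 4 genes were called higher in KO than in WT and 0 lower. Sstr2, a somatostatin receptor, had 0 counts in MPP WT and 2.21 and 2.18 CPM in MPP KO, so the size of its interaction is not bounded. Gzmb, granzyme B, had 2.04 and 3.37 CPM in LSK KO and 22.4 and 30.0 CPM in MPP KO, against 25.4 and 62.2 CPM in LSK WT and 44.4 and 41.5 CPM in MPP WT. Nedd9, a scaffold protein of adhesion signalling, differed by -1.91 in KO and by 0.86 in WT (log2).

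Against Mut, the difference was higher in KO for Epx (adjusted p = 5.68e-07), Prg2 (3.77e-05), Lars2 (7.96e-08), Rn45s (9.48e-05) and Rplp1 (0.0436). It was lower for Chil3 (0.0413), Prss34 (0.00059), Tfr2 (0.0119) and Elane (0.0105). Epx had 0 counts in the LSK Mut libraries, so the size of its interaction is not bounded. At a 1.5-fold threshold, 4 genes were called higher in KO than in Mut and 1 lower. Lars2 had 12071 and 12063 CPM in LSK KO and 4434 and 4103 CPM in LSK Mut. Rplp1, a ribosomal stalk protein, had 965 and 837 CPM in LSK KO and 342 and 399.9 CPM in LSK Mut. Chil3 had 0.11 and 0.144 CPM in LSK KO and 84.0 and 77.8 CPM in MPP KO, against 3.19 and 1.13 CPM in LSK Mut and 21.8 and 15.7 CPM in MPP Mut. The part of ribosomal RNA content in these differences was not tested.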

How the results depend on the processing

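The count of 2128 genes for LSK KO against MPP KO was 866 at a 1.5-fold threshold, 3509 with the 4 KO libraries alone and 3300 without the LSK WT libraries, and ran from 991 to 3325 when 1 library was left out. It was 3163 with DESeq2, 2527 without a filter, 2142 with RLE and 2102 with upper-quartile scaling, which moved the share of calls that were higher to 52.9% from 46.3%. The count of 102 for KO minus WT was 580 with DESeq2, 278 without a filter, 4 at a 1.5-fold threshold and 4 to 903 with 1 library left out. The count of 9 for KO minus Mut was 119 with DESeq2, 42 without a filter, 5 at a 1.5-fold threshold, 30 without the LSK WT libraries, 5 without Rn45s and Lars2, and 5 to 39 with 1 library left out. The cause of these changes was not tested. Where a group keeps 1 library, that library is assumed to vary like the other groups.

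The replicate numbers name technical libraries of a pool. Deviations of same-numbered libraries correlated at -0.02 over 10503 genes, so the numbers do not pair the samples. With the replicate block the counts were 1882 for LSK KO against MPP KO, 34 for KO minus WT and 7 for KO minus Mut. The block with the 4 KO libraries alone, chosen after seeing the data, gave 3032.

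Of the 169 named genes called between LSK KO and MPP KO, 169 kept their direction in all settings, 104 stayed past the threshold whichever of the 12 libraries was left out and 100 did so under all settings. Those that lost it most often were Rpl10, Ldhb, Hist1h1c, Nuf2, Ccng1, Gapdh, Cd3e, Oas2 and Dnmt3a. Without the LSK WT libraries, 21 of the stem cell list rose, and 13 of the primary granule, 22 of the erythroblast and 9 of the eosinophil lists fell.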

Other observations

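Gene families chosen after their values were seen also differed between the populations of KO marrow. Some of their members, such as Hspa5 and Calr, are in lists described above. Over all genes tested, 7.03% were called higher and 8.14% lower in LSK KO. Genes of protein folding in the endoplasmic reticulum were lower in LSK KO. Of 20 protein disulfide isomerases and chaperones of that compartment tested, 15 fell and 0 rose (median log2 difference -1.39). P4hb, the beta subunit of prolyl hydroxylase and itself a disulfide isomerase, had 534 and 522 CPM in LSK KO and 1815 and 2049 CPM in MPP KO (edgeR, adjusted p = 1.05e-06). Sdf2l1 had 81.4 and 76.4 CPM in LSK KO and 364 and 393 CPM in MPP KO (adjusted p = 5.71e-05). Of 11 oligosaccharyltransferase genes, which attach glycans to new proteins, 7 fell, and of 15 genes of the signal peptidase, Sec61 channel and TRAP complex, 9 fell and 1 (Sec62) rose. Cathepsins, the proteases of lysosomes and granules, fell for 7 of 13 and rose for 2 (Ctsf and Ctso).

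Of 26 genes with Kmt or Kdm symbols, the lysine methyltransferases and demethylases, 10 rose and 0 fell, and of 11 genes with Chd symbols, mostly chromatin helicases, 5 rose and 0 fell. Kmt2a, needed for Hox gene expression in stem cells, had 185 and 172 CPM in LSK KO and 47.4 and 70.0 CPM in MPP KO (adjusted p = 0.00341). Chd4 had 397 and 371 CPM in LSK KO and 148 and 143 CPM in MPP KO (adjusted p = 0.000253). These genes have long transcripts, with a median of 6246.5 bases in the Kmt and Kdm group, and long transcripts as a class were higher in LSK KO, at a median of 0.41 in the longest of 5 length classes. The part of length was not tested. By comparison, of 352 genes with Zfp symbols, 19 rose and 2 fell. Of 16 genes with H2-K, H2-D, H2-Q, H2-T or H2-M symbols, mostly MHC class I genes, whose near-identical members could share reads, 6 rose and 0 fell, and H2-K1 had 2172 and 2168 CPM in LSK KO and 1098 and 1097 CPM in MPP KO (adjusted p = 9.38e-06). Among the immune GTPases of the Gimap family, 5 of 8 rose and 2 fell, with Gimap6 at 285 and 259.8 CPM in LSK KO and 59.2 and 56.9 CPM in MPP KO and Gimap4 at 3.15 and 2.44 CPM in LSK KO and 44.4 and 32.5 CPM in MPP KO.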
